A study of Mus musculus with 6 samples.

Results

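The genes described are the AP-1 and BATF transcription factors, 10 members of the basic leucine zipper (bZIP) family: Fos, Fosb, Fosl1, Fosl2, Jun, Junb, Jund, Batf, Batf3 and Maf. Their regions were taken from the authors' deposited comparison of UTX CUT&Tag signal as every site whose assigned gene symbol is one of these 10 names. That choice gave 20 of the 6739 listed sites, at 9 of the 10 genes, and Batf3 had none. UTX, encoded by Kdm6a, is a demethylase that removes methyl groups from lysine 27 of histone H3. CUT&Tag maps where a protein sits on chromatin by directing a tagging transposase to an antibody bound to it, here an antibody against UTX. There were 3 samples of progenitor CD8 T cells (positive for Ly108, negative for CXCR6) from NY8.3 mice in which UTX was deleted in T cells alone, and 3 of the same sorted cells from NY8.3 mice, labelled WT. All cells came from pancreatic lymph nodes, and NY8.3 mice are on the NOD background and carry a transgenic receptor on their T cells. The promoter driving the deletion, the age of the mice and the number of animals behind a sample are not stated in the labels, so p-values measure only the spread between these samples.

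AP-1 is a dimer of bZIP proteins, most often one FOS and one JUN protein, and it switches on genes after a T cell receptor signal. FOS proteins cannot pair with each other and need a JUN partner, whereas JUN proteins can pair with either kind. BATF and BATF3 lack an activation domain of their own, pair with JUN proteins and bind DNA together with the interferon regulatory factors IRF4 and IRF8. In CD8 T cells, AP-1 working with NFAT drives effector genes, and the balance of JUN against BATF proteins is known to bear on exhaustion.

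Reads per library were recovered from the group values in the table, taking each to be a sum of whole reads scaled by library depth. The recovered libraries are ranked by depth within their group, and none can be tied to a replicate. Depth, as a multiple of the mean library, was 1.93, 1.07 and 0.00577 in UTX-deficient cells and 1.28, 0.916 and 0.792 in WT cells. The shallowest UTX-deficient library was near-empty: 1 of its reads is worth 173 normalized reads. It had 0 reads at all 20 AP-1, BATF and MAF sites, and 0 over all listed sites lower in UTX-deficient cells whose reads were recovered. Values for UTX-deficient cells below come from the other 2 libraries unless stated. The authors' own group values average over all 3 libraries of a group and so count the near-empty one. How the authors' folds and FDR values treat that library is not stated. At the site 169 bp upstream of the Kdm6a start, the gene that was deleted, the 3 UTX-deficient libraries held 8, 12 and 0 reads and the 3 WT libraries 65, 48 and 35. Listed sites were found at 4 of 4 CD8 T cell genes and 3 of 3 progenitor genes, and at 0 of 3 B cell, 0 of 4 myeloid and dendritic and 0 of 2 natural killer genes. Of all protein-coding genes, 22.1% had a listed site lower in UTX-deficient cells, so counts of 0 among so few genes say little about which cells were present.

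All 20 sites of the 9 genes had less UTX signal in UTX-deficient cells. The sites were spread unevenly, with 5 at Fos, 3 each at Fosb, Jun and Junb, 2 at Batf and 1 each at Fosl1, Fosl2, Jund and Maf. In the authors' deposited table the log2 folds of the 20 sites ran between -4.85 at Fosl2 and -1.98 at Batf, where a negative fold means higher signal in WT. The table lists only sites with an FDR under 0.05. The number of tests behind its FDR, inferred from the deposited p-values and FDR, was 8293. Of these tests, 81.0% were sites called lower in UTX-deficient cells, hereafter lower sites. Site numbers run up to 10831, more than the inferred tests. Of the 6739 listed sites 21 went the other way, so the direction of a listed site is close to fixed. In a limma fit of the recovered reads over all listed sites, on log2(normalized reads + 1) and with Benjamini-Hochberg adjustment, 20 of 20 sites were called lower, against 99.7% of all sites tested. The median limma log2 difference was -3.62 over the 20 sites and -3.65 over all lower sites. Both UTX-deficient libraries lay below each WT library at 20 of 20 sites, as at 100.0% of the lower sites, so neither count sets these genes apart. In sorted bulk cells, fewer cells and less bound UTX per cell cannot be told apart. Whether the reads left in UTX-deficient cells came from UTX or from background was not tested. How often these genes carried a site, where the sites lay, how strong they were and how much signal was left did vary among the members.

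**Figure D1:**
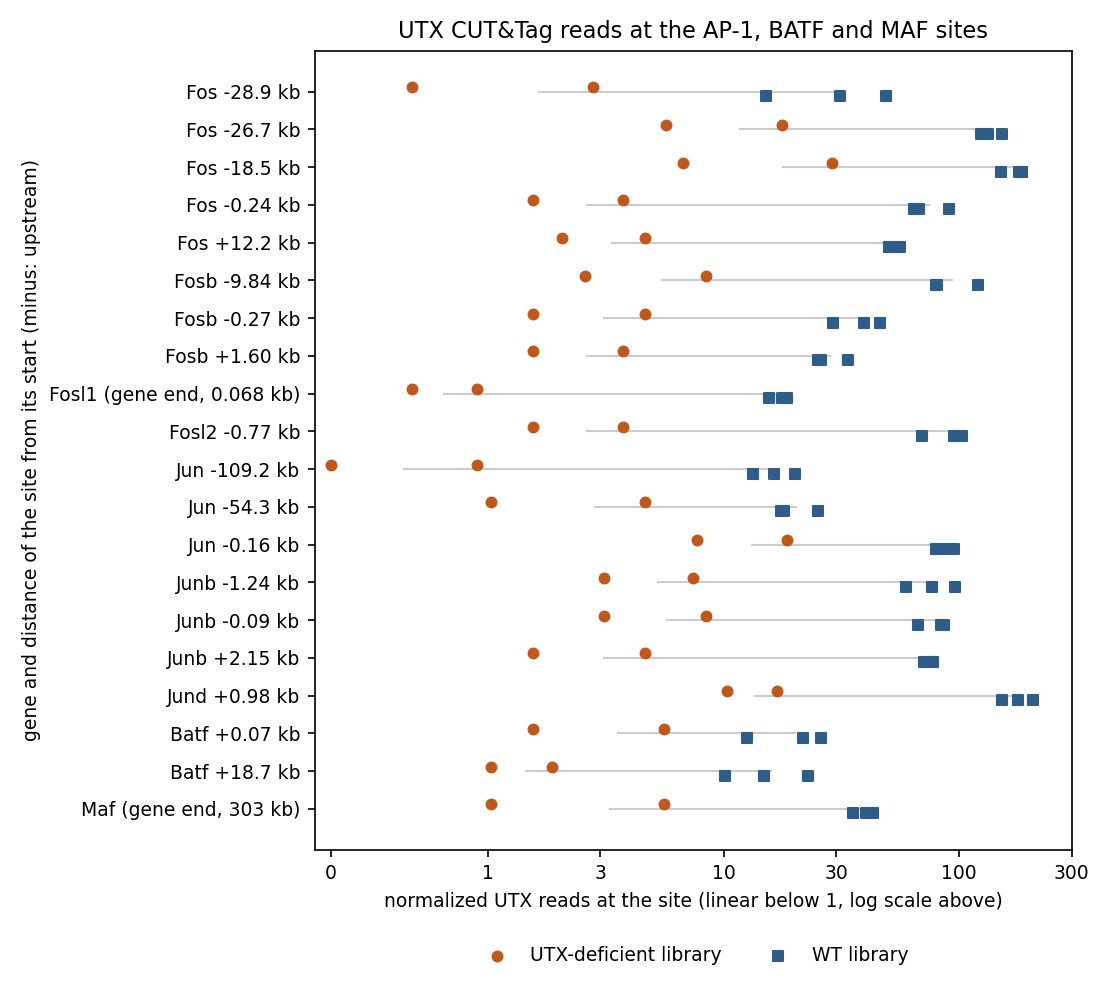
Normalized UTX reads in each library at the 20 sites, by gene and distance from the gene start (UTX-deficient circles, 2 libraries; WT squares, 3 libraries; near-empty library not drawn), with a grey line joining the group means on an axis that is linear below 1 and logarithmic above. At each of the 20 sites both UTX-deficient libraries lie below each WT library, and Jund and the Fos sites at -18.5 and -26.7 kb have the highest WT values.

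Fos, the immediate early gene that gives AP-1 its best known subunit, had 5 sites over 41.5 kb of chromosome 12, and 1.05% of the genes with a listed site had at least as many. Its start site, chr12:85473454-85473854, is centred 236 bp upstream of the start. There the UTX-deficient libraries held 1.55 and 3.73 normalized reads, against 67.3, 90.6 and 64.4 in the WT libraries. The groups were far apart, and the fold in the authors' deposited table is -4.60 on the log2 scale (FDR 3.72e-17). The limma log2 difference was -4.42 (SE 0.57, adjusted p = 2.06e-06), and 7 reads in UTX-deficient cells against 220 in WT left 3.16% of the WT signal per unit of depth (exact 95% interval 1.26 to 6.62%, counting error only). Of the 7 sites within 1 kb of a gene start, only the Fosl2 site, at 2.57%, had less signal left. The part of the promoter that lies under this site is printed because the element known to answer cyclic AMP and calcium signals in this gene falls within it. It covers bases -250 to -36 from the start (chr12:85473640-85473854, plus strand, RefSeq GRCm38.p6), with capitals at the core of the cyclic AMP response element (CRE core TGACG) and at the GC box (GGGCGG, here on the other strand).
Fos: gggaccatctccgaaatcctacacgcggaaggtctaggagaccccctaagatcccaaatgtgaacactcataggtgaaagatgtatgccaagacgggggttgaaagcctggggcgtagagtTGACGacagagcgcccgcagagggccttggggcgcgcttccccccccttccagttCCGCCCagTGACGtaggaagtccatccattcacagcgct

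The strongest Fos sites were not at the start. The site at chr12:85455190-85455590, 18.5 kb upstream, held 6.72 and 28.9 normalized reads in the UTX-deficient libraries, against 184, 179 and 150 in the WT libraries. It had the second highest WT level of the 20 sites, above 98.9% of all lower sites, and 8.44% of the WT signal was left. The site at chr12:85447039-85447439, 26.7 kb upstream, held 5.69 and 17.7 normalized reads in the UTX-deficient libraries, against 133, 152 and 124 in the WT libraries, and 7.32% was left. The WT means of these distal sites were 171 ± 18.2 and 136 ± 14.3 normalized reads, against 74.1 ± 14.4 at the start site (SD, n = 3 libraries each), and both were above the start site in each WT library. The remaining distal sites were weaker. The one at chr12:85444796-85445196, 28.9 kb upstream, had 0.517 and 2.80 normalized reads in the UTX-deficient libraries and 31.3, 49.1 and 15.1 in the WT libraries, the widest spread among WT libraries of any of the 20 sites (coefficient of variation 53.4%). The one at chr12:85485890-85486290, 12.2 kb past the start and beyond the gene's end, had 2.07 and 4.66 normalized reads in the UTX-deficient libraries and 56.3, 53.5 and 50.5 in the WT libraries. All 4 distal sites had Fos as the nearest gene start in the promoter table, although an end of Gm46370 or Gm38543 lay nearer to the 3 upstream ones. Whether they act on Fos was not measured.

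**Figure D2:**
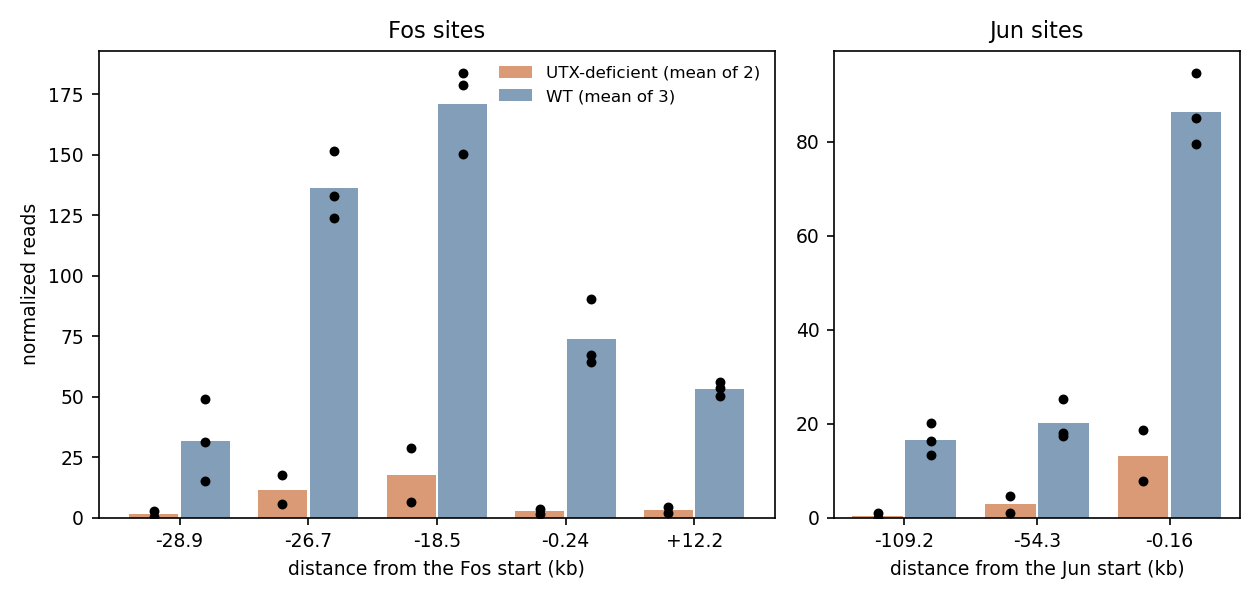
Normalized UTX reads at the 5 Fos sites (left panel) and 3 Jun sites (right panel) by distance from the gene start in kb; bars are group means (UTX-deficient, 2 libraries; WT, 3 libraries) and points are libraries. At Fos the highest WT bars stand 18.5 and 26.7 kb upstream, whereas at Jun the start site is the highest, with the most signal left in UTX-deficient cells.

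Fosb, a second immediate early FOS gene, repeated the layout of a distal site stronger than the start site. Its site at chr7:19319689-19320089, 9.84 kb upstream, held 2.58 and 8.39 normalized reads in the UTX-deficient libraries, against 79.8, 120 and 80.8 in the WT libraries. The site 267 bp upstream of the start, chr7:19310112-19310512, held 1.55 and 4.66 in the UTX-deficient libraries, against 46.1, 39.3 and 29.0 in the WT libraries. Each WT library was lower at the start site than at the distal one. The site within the gene, chr7:19308242-19308642, had the same 3 and 4 reads in the UTX-deficient libraries as the Fos start site but fewer in WT, so that 8.28% of the signal was left there, against 6.73% at the start site and 5.04% at the distal one. These intervals overlap widely, at 3.23 to 17.8%, 2.84 to 13.7% and 2.72 to 8.60% (exact 95%, counting error). The promoter stretch under the start site, bases -250 to -67 (chr7:19310112-19310295, minus strand, RefSeq GRCm38.p6), is shown for its overlapping pair of GC boxes, in capitals; the CRE core of this gene lies nearer the start, outside the site.
Fosb: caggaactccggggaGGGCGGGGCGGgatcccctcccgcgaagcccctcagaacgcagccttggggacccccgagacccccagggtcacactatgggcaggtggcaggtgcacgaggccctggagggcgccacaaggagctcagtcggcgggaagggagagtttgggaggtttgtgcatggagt

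Fosl2 and Fosl1 encode FRA2 and FRA1, FOS-related proteins without the strong activation domain of FOS, and they differed widely in WT. Fosl2 had 1 site, chr5:32135502-32135902, 770 bp upstream of its start. It held 1.55 and 3.73 normalized reads in the UTX-deficient libraries, against 94.6, 103 and 69.4 in the WT libraries, so the groups did not overlap. Its fold of -4.85 in log2 units in the authors' deposited table (FDR 2.03e-18) was the largest among the 20 sites, and 2.57% of the WT signal was left (interval 1.03 to 5.38%). The single Fosl1 site, chr19:5447430-5447830, overlaps the lower-coordinate end of the gene and is centred 68 bp outside it. It was one of the weakest, with 0.517 and 0.932 normalized reads in the UTX-deficient libraries and 15.6, 18.6 and 17.7 in the WT libraries, and only 8.89% of all lower sites had a lower WT level. With 2 reads in UTX-deficient cells and 51 in WT, its signal left of 3.89% has a wide interval, 0.459 to 14.8%.

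Jun, the partner shared by FOS and BATF proteins, had the widest range of signal left among its own sites, between 2.07% (on a single read) and 13.3%. Its start site, chr4:95052186-95052586, centred 164 bp upstream of the start, held 7.75 and 18.6 normalized reads in the UTX-deficient libraries, against 94.6, 85.1 and 79.5 in the WT libraries. The groups did not overlap, and limma gave a log2 difference of -2.73 (SE 0.66, adjusted p = 0.000806). The authors' deposited table has it at -2.71 on the log2 scale, with an FDR of 3.74e-10. The signal left was 13.3% (35 reads in UTX-deficient cells against 262 in WT, interval 9.05 to 18.9%), more than at 96.9% of all lower sites. Taken singly, the UTX-deficient libraries had 8.97% and 21.6% left, so the interval, which covers counting error only, does not cover their spread. The site overlaps both the start of Jun and an end of Junos, the gene annotated next to it (chr4:95052317-95169036), so its signal cannot be assigned to one of the 2 genes. The sites farther upstream were faint, and both lie inside Junos. At chr4:95106318-95106718, 54.3 kb upstream, 1.03 and 4.66 normalized reads in the UTX-deficient libraries stood against 18.0, 17.5 and 25.2 in the WT libraries, with 11.8% left. At chr4:95161177-95161577, 109 kb upstream, 0 and 0.932 normalized reads in the UTX-deficient libraries stood against 13.3, 16.4 and 20.2 in the WT libraries. The 2.07% left there rests on a single read, and its interval of 0.0513 to 12.1% overlaps that of the start site.

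The Jun promoter under the start site is printed since it is known for control by the gene's own product: dimers of JUN and ATF proteins bind a pair of AP-1-like elements in it. The stretch covers bases -250 to -1 (chr4:95052223-95052472, minus strand, RefSeq GRCm38.p6). Capitals mark the distal element TTACCTCA (-164 to -157), a GC box read on the other strand (-89 to -84) and the proximal element TGACATCA (-45 to -38).
Jun: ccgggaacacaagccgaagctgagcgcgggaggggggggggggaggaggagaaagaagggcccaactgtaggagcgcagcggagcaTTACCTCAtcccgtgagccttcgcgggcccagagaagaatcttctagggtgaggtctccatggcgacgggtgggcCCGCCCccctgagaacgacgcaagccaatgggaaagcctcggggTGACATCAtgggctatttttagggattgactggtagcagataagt

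In the fit of 5 libraries the Jun start site kept more CUT&Tag signal than was typical of the other listed sites. That call depended on how the spread was estimated. Libraries were scaled by their reads in the listed sites, which removes the loss common to all sites. On that scale limma gave the Jun start site a log2 difference of 1.42 (SE 0.21, adjusted p = 0.0324), that is, higher in UTX-deficient cells relative to the other sites. Such calls were rare, at 0.698% of sites higher and 1.96% lower, and the Jun start site was the only one of the 20 called. On this scale limma called 0 members lower. At an unadjusted p under 0.05, 6 of the 20 were higher and 3 lower, against 9.53% and 10.9% of all 6736 sites, so the count lower is near the background. With voom precision weights 2 of the 20 were called higher and 0 lower, against 3.50% and 0.297% of all sites, a balance of calls turned round from that of the unweighted fit. Fits with a single UTX-deficient library, in which the WT libraries alone give the spread, called many sites everywhere. Without the deepest, 6 of the 20 were higher and 3 lower, against 15.6% and 24.2% of all sites, and without the second 8 were higher and 2 lower, against 26.3% and 32.7%. Without any one WT library the difference at the Jun start was 1.49 (deepest left out), 1.35 (second) and 1.42 (shallowest), with adjusted p = 0.192, 0.247 and 0.229 in limma. Those fits called 1, 0 and 0 of all 6736 sites higher and 0 lower (5.27 to 5.64% higher and 4.94 to 5.27% lower at an unadjusted p under 0.05), so that the lost call says nothing of this site in particular. Without the variance trend in limma the adjusted p was 0.123, and 9 sites in all were called higher. With voom precision weights in limma the adjusted p was 0.000883. The Kdm6a start site, by comparison, had 13.4% of its signal left.

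Junb, which pairs with BATF and FOS proteins in T cells, had 3 sites packed into 3.79 kb, each of about equal strength in WT. The start site, chr8:84978642-84979042, centred 94 bp upstream, held 3.10 and 8.39 normalized reads in the UTX-deficient libraries, against 86.0, 84.1 and 66.9 in the WT libraries. The site 1.24 kb upstream, chr8:84979792-84980192, held 3.10 and 7.46 in the UTX-deficient libraries, against 96.2, 76.4 and 59.3 in the WT libraries. The site 309 bp past the gene's end, chr8:84976400-84976800, held 1.55 and 4.66 in the UTX-deficient libraries, against 77.4, 74.2 and 70.7 in the WT libraries. WT means were thus 79.0 ± 10.5, 77.3 ± 18.4 and 74.1 ± 3.37 (SD, n = 3 each), closer to one another than the spread at the first 2, and no order can be read from them. Signal left was 6.21%, 5.79% and 3.56%, with overlapping intervals. In the authors' deposited table all 3 had FDR values of 2.65e-15 or less. The promoter stretch under the start site, bases -250 to -1 (chr8:84978749-84978998, minus strand, RefSeq GRCm38.p6), holds a single CRE core, in capitals, and is shown for the contrast with Jun, whose AP-1-like elements it lacks in this window.
Junb: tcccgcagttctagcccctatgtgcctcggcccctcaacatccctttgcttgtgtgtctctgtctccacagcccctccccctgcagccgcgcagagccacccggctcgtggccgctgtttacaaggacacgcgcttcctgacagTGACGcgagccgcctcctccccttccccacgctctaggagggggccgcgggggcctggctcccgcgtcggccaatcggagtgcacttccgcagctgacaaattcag

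Jund, the JUN gene that is expressed most steadily across cell states, had the highest WT level of the 20 sites. Its site, chr8:70698518-70698918, lies inside the gene 979 bp past the start. It held 10.3 and 16.8 normalized reads in the UTX-deficient libraries, against 177, 206 and 151 in the WT libraries, a level above 99.1% of all lower sites. The groups did not overlap, 7.05% was left (38 reads in UTX-deficient cells against 535 in WT, interval 4.94 to 9.81%), and limma gave a log2 difference of -3.65 (SE 0.71, adjusted p = 0.000102). Its counts make it, with the Fos sites 18.5 and 26.7 kb upstream, one of the members measured with least counting error.

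Batf, needed for effector differentiation of CD8 T cells, had 2 faint sites. Its start site, chr12:85686586-85686986, centred 66 bp past the start, held 1.55 and 5.59 normalized reads in the UTX-deficient libraries, against 25.8, 21.8 and 12.6 in the WT libraries. The groups did not overlap. The fold was -1.98 in log2 units in the authors' deposited table, the smallest of the 20 sites, with an FDR of 0.0356, and 14.2% of the signal was left on 9 reads in UTX-deficient cells against 63 in WT (interval 6.20 to 28.7%). The other site lies 18.7 kb into the gene, at chr12:85705236-85705636. It held 1.03 and 1.86 normalized reads in the UTX-deficient libraries, against 14.9, 22.9 and 10.1 in the WT libraries, with an FDR of 0.0256 in the authors' deposited table. At an FDR of 0.01 Batf has no site. The promoter stretch under the start site, bases -134 to -1 (chr12:85686586-85686719, plus strand, RefSeq GRCm38.p6), is given because it joins a CRE core and a GC box (other strand) 3 bases apart, both in capitals.
Batf: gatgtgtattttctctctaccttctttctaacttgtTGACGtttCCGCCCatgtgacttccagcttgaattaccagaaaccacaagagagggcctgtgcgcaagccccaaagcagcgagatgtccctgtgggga

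Batf3, best known in mice for its need in cross-presenting dendritic cells, had no listed site. The nearest listed sites were 71.9 kb away on the lower-coordinate side, assigned to Flvcr1, and 116 kb away on the other, assigned to D730003I15Rik. Site numbers in the table run in genomic order, and 1 number between those neighbours is not listed. Absence from a list of differing sites does not show that UTX was absent at Batf3. Maf, a large MAF protein that drives Il10 in T cells, had 1 site, chr8:115400175-115400575, placed 303 kb from the nearer end of the gene and nearest to an end of Wwox. It held 1.03 and 5.59 normalized reads in the UTX-deficient libraries, against 43.0, 40.4 and 35.3 in the WT libraries, and 6.62% was left. Its link to Maf rests on the authors' assignment alone.

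As a set, the AP-1, BATF and MAF sites were stronger in WT than was typical of the lower sites, though not at every gene. Their median WT level was 63.8 normalized reads, against 30.7 over all lower sites, with 14 of 20 above that median and 8 in the top 10%. Those 8 were at Fos (2), Junb (2), Fosb, Fosl2, Jun and Jund, whereas both Batf sites, the distal Jun sites, the Fosl1 site and the Fosb site within the gene fell below the median. The median signal left was 6.41% over the 20 sites and 4.90% over all lower sites, and again 14 of 20 lay above the median. The 3 in the top 10% were the Batf start site, the Jun start site and the Jun site 54.3 kb upstream. Signal left differed between the UTX-deficient libraries: its median over the 20 sites was 3.86% without the second library and 9.91% without the deepest. The second was the higher at 20 of 20 of these sites and at 84.0% of all lower sites. WT libraries varied at the 20 sites by a median coefficient of variation of 18.2%, near the 16.8% over all lower sites.

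**Figure D3:**
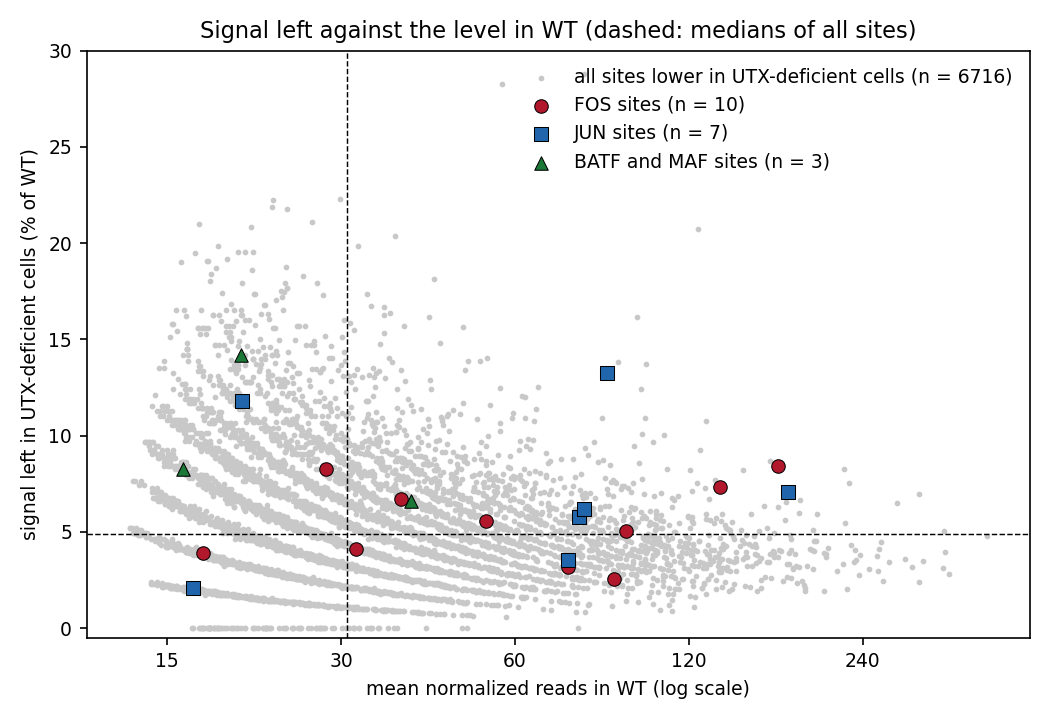
Signal left in UTX-deficient cells as a percentage of WT (pooled reads per unit of depth) against mean normalized reads in WT on a log axis, for all 6716 lower sites with reads recovered (grey) and the FOS (10), JUN (7) and BATF and MAF (3) sites; dashed lines are medians and 2 sites above 30% are not drawn. The Jun start site, at 13.3% left, lies above 96.9% of all lower sites, and the Fosl2 site, at 2.57%, is low.

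The sites lay both at starts and far from them. Of the 18 sites that could be placed against a start in the reference table, 7 (38.9%) lay within 1 kb, against 61.0% of all placed sites. A further 7 (38.9%) lay more than 10 kb away, against 26.1%. The sites within 1 kb belonged to Fos, Fosb, Fosl2, Jun, Junb, Jund and Batf, 1 each. Those beyond 10 kb belonged to Fos (4), Jun (2) and Batf (1). Median WT level was 79.0 normalized reads within 1 kb and 53.4 farther out, and median signal left 6.73% and 5.79%, differences smaller than the range within either group. For 18 of 18 placed sites the assigned gene had the nearest start, as for 86.1% of all placed sites. Fos and Batf lie in the same stretch of chromosome 12 with Jdp2, whose product is a repressive bZIP partner of JUN proteins. Between the first Fos and the last Batf site, 261 kb, all 8 listed sites belong to these 3 genes. The Jdp2 site held 1.55 and 5.59 normalized reads in the UTX-deficient libraries, against 30.5, 32.7 and 31.6 in the WT libraries.

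**Figure D4:**
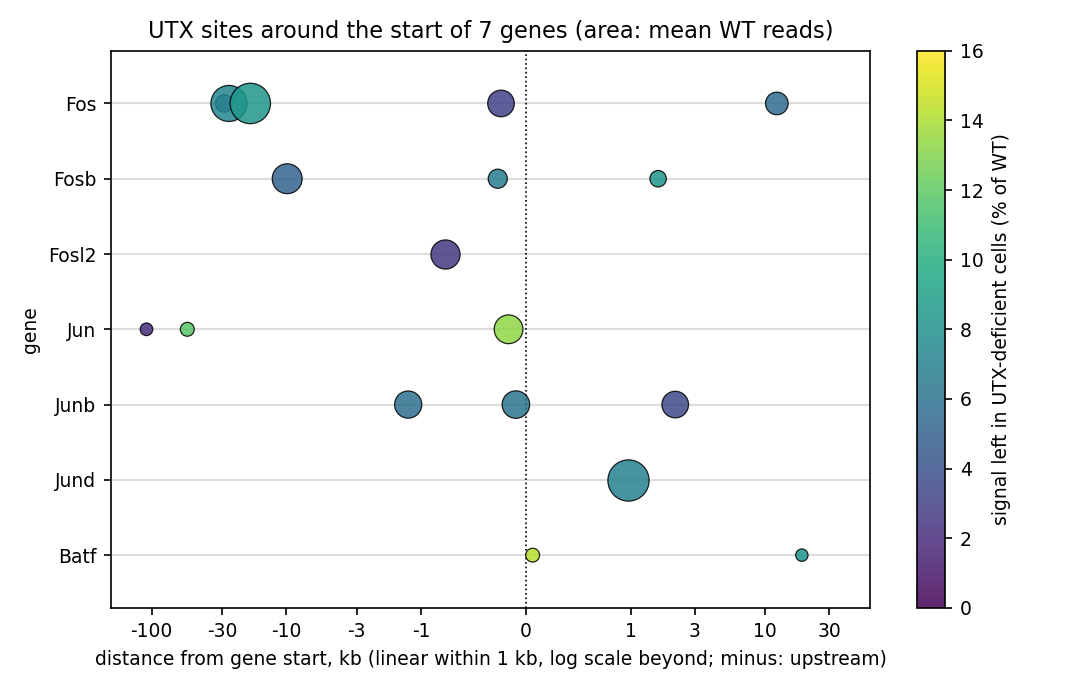
Distance of each placed site from its gene start in kb (linear within 1 kb, logarithmic beyond; minus is upstream) for 7 genes, with area proportional to mean WT reads and colour giving the signal left in UTX-deficient cells. Fos, Fosb, Jun, Junb and Batf have sites both near and away from the start, and the brightest points are the start sites of Jun and Batf.

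Carrying a site at all was common among these genes. Of the 10 members 9 had a site lower in UTX-deficient cells, against 22.1% of all protein-coding genes. Of those 9 members, 4 had at least 3 sites, against 6.15% of the genes with a site, protein-coding or not. The members, and the lists below, were chosen with earlier results of these data known. The 22.1% counts every protein-coding gene, whether or not these cells express it, and the contrast was not tested. The letters of the promoters were searched on both strands in windows of 300 bases (250 before the start to 50 after), available for 8 members. The AP-1 motif TGANTCA was in 0 of 8 windows, against 7.81% of all 32851 promoter windows, and so were TGACTCA and TGAGTCA (5.20%, the same sites read on opposite strands), the full CRE TGACGTCA (1.79%) and the CArG box (1.63%). The serum response element of Fos, which holds a CArG box, is known to lie upstream of this window. The GC box GGGCGG was in 6 of 8 windows, against 35.7%, the ETS motif CCGGAAG in that of Batf (8.86% of all) and the E-box CACGTG in that of Batf3 (7.15%). The CRE core TGACG, which the full CRE contains, was in 4 of 8 (Fos, Fosb, Junb and Batf), against 20.8%. The Jun elements TGACATCA and TTACCTCA were in the Jun window alone among the members, against 3.62% and 0.889% of all. These last 3 were searched after the letters had been seen, and a match is a description of the letters, not of a bound factor.

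Genes that work with AP-1 carried sites as well, all of them lower in UTX-deficient cells, and the shares of the lists were not tested against each other. Of the partner factors, 10 of 11 had a site (90.9%), with Irf8 the exception. Among them Nfatc3, an NFAT factor that binds DNA beside AP-1, had a fold of -4.15 in log2 units in the authors' deposited table, Nfatc1 -4.11, Smad3 -4.39 and Nfkb1 -5.03, each at its site of smallest FDR. Of the regulators of Fos transcription, 10 of 13 had one (76.9%). Creb1, which binds the CRE, kept 1.69% of its WT signal (2, 4 and 0 reads in UTX-deficient libraries, against 129, 129 and 95 in WT libraries), Ep300 1.78%, Egr1 3.21% and Elk4 5.26%, again at the sites of smallest FDR. Of the related bZIP genes 24 of 42 (57.1%) had a site, led by Tef (2.10% left), Nfe2l1 (2.06%), Maff (3.64%) and Ddit3 (3.72%). Of the kinases and phosphatases acting on AP-1 16 of 31 (51.6%) had one, led by Dusp1 (4.19%), which inactivates MAP kinases, Rps6ka1 (3.40%), Dusp2 (3.80%) and Rps6ka2 (4.89%). Of 14 target genes of AP-1 in T cells 6 had one (42.9%, exact 95% interval 17.7 to 71.1%, which holds the 22.1% of all protein-coding genes), among them Fasl (3.47%), Cd69 (6.86%), Ifng (3.74%) and Tnf (1.20%). The cytokine genes Il2, Il4, Il10, Il21 and Csf2 had none. Within 1 kb of a gene end 0 of 14 target genes (upper limit 23.2%) and 45.5% of the partner factors had a site, against 15.3% of all protein-coding genes.

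**Figure D5:**
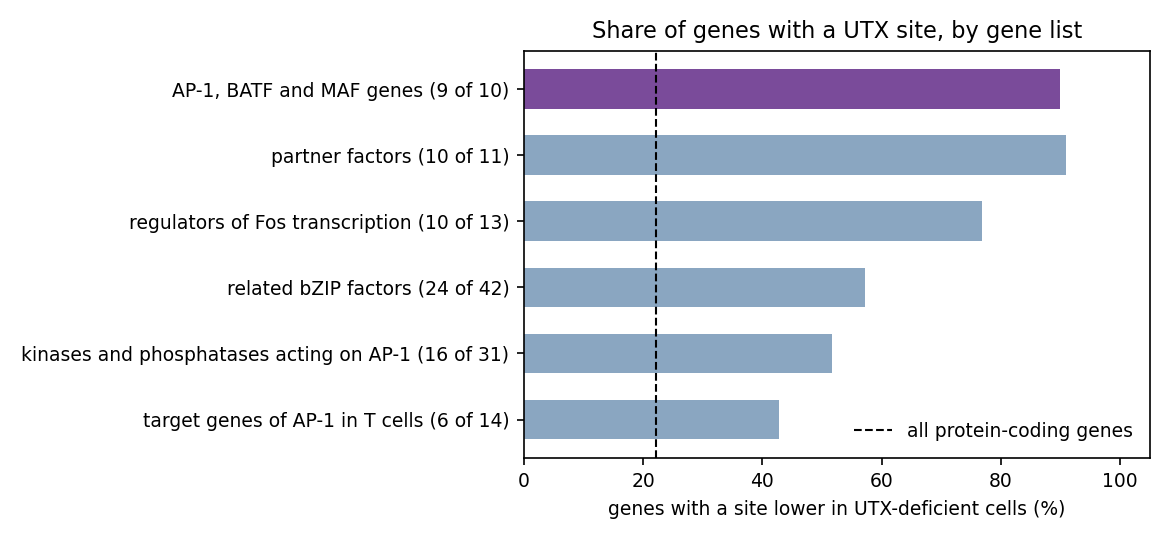
Percentage of genes with at least 1 site lower in UTX-deficient cells for the AP-1, BATF and MAF genes (9 of 10) and 5 lists of genes that act with them, with the share of all protein-coding genes (22.1%) as a dashed line. The bars run between 42.9% for the target genes, whose exact 95% interval of 17.7 to 71.1% holds the line, and 90.9% for the partner factors. Members and lists were chosen with earlier results of these data known.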

How the data were processed

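UTX CUT&Tag was measured in 3 UTX-deficient and 3 WT samples, and the authors' deposited table of their comparison was analysed. Per the submitters' processing notes, DiffBind, MACS2, Bowtie2, cutadapt, SAMtools, Picard and FastQC were used with build mm10. Their versions, and if each sample had its own peaks or all were pooled, were not stated. Per the file headers, the deposited concentrations are log2 values of normalized reads, and the folds, p-values and FDR are the authors' own. No scale is stated for the folds, which were read as log2 values. They are not plain differences of the deposited group concentrations. At the Batf start site the fold is -1.98, whereas the concentrations are 1.25 in UTX-deficient cells and 4.33 in WT cells. Columns of per-sample values that were left unused number 0.

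Whole reads per library were recovered from the group sums (1 solution for WT at 6736 of 6739 sites). On 2 simulated tables of 6736 sites, at least 6723 were solved and 0 wrongly. Those tables were themselves made as sums of whole reads scaled by depth, so they do not test that assumption. Whether control reads were subtracted before the group values were made is not stated, so the recovered reads may not be raw counts. The 5 libraries of at least 1% of mean depth were fitted with limma 3.58.1 in R 4.3.3 on log2(normalized reads + 1), Benjamini-Hochberg adjusted over 6736 sites at 0.05. On simulated reads for those sites it called 99 of 100 sites cut to 0.125 of their level, and 13 of 100 cut to 0.5. The simulated libraries of a group shared the same levels and 6536 sites were left unchanged, unlike the data, so these rates need not hold here. Signal left is pooled UTX-deficient over WT reads per depth, with an exact (Clopper-Pearson) 95% interval that covers counting error only; such reads carry no molecular identifiers and are not independent molecules. Alternatives covered the FDR, distance, gene assignment, pseudocount, weights, scaling and left-out libraries. Gene ends, starts and promoter letters come from RefSeq GRCm38.p6, the assembly of mm10; the starts of Fosl1 and Maf were not used here. Named genes are every member with every site and, per list, up to 4 genes of smallest FDR. The members and lists were chosen with earlier results of these data known.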

Additional observations from a re-analysis of the deposited data

How the results depend on the processing

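The direction and the call by limma held in each of 11 settings at every site tested there (219 of 219 site and setting pairs, largest adjusted p 0.0137; the Jun site 109 kb upstream was not tested in the setting of at least 50 reads), with 20 to 20 called when a library was left out. Since the sites were listed for differing in these same data, that outcome was close to fixed. In the settings that kept both UTX-deficient libraries, 6713 to 6717 of all 6736 listed sites were called lower, and 6465 of 6467 with at least 50 reads. Scaling by reads in the listed sites, which by construction removes the loss common to them, called 0 of the 20 sites lower, put the median signal left at 126% and gave 13 of the 20 sites a log2 difference above 0, as it did 43.4% of all sites: Batf 1.50 and 0.78, Fos 0.52, 0.67 and 0.17, Fosb 0.71 and 0.46, Jun 1.42 and 1.04, Junb 0.33 and 0.30, Jund 0.53 and Maf 0.24. The relative difference at the Jun start was 1.42 without the variance trend and 1.24 to 1.61 when a library was left out (1.49 without the deepest WT library, 1.35 without the second, 1.42 without the shallowest). Median signal left ranged between 3.86 and 9.91% when a library was left out, the UTX-deficient libraries setting both ends. Within 1 kb of a gene end 9 of the 20 sites remained, and shares with a site were 38.1% for related bZIP genes, 45.5% for partner factors (54.5% within 10 kb) and 0% for target genes, against 15.3% of all protein-coding genes (19.3% within 10 kb); fewer sites are counted there by construction. At an FDR of 0.01 16 sites at 8 members were left, and by nearest gene end 7 members had a site. No paired analysis was possible because the recovered libraries carry no replicate number. Depth limits the sites with 1 or 2 reads in UTX-deficient cells, at Fosl1 and the Jun site 109 kb upstream.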
